A study of Homo sapiens with 8 samples.

Results

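The mitochondrially encoded genes are the genes carried by the mitochondrion's own circular chromosome rather than by the nucleus. They were taken as every gene that the deposited table places on the chromosome named MT, which gave 37 of 60796 genes, made up of 13 messenger RNA, 2 ribosomal RNA and 22 transfer RNA genes. The RNA came from HT-29, an established human colon adenocarcinoma cell line, which the labels give as colon and enterocyte. The 4 treatments were 5-FU (the fluoropyrimidine drug 5-fluorouracil), the 74 3NP extract, the 76 3P extract and the control. Per the labels' protocols, cells received the rice extracts MRQ 74 and MRQ 76 at their IC50, an inhibitory concentration. For the dose of 5-FU and what control cells received, the labels give nothing, and 1 treatment tag reads plant extract for all 8 libraries, so the groups come from the titles. Each treatment had 1 library at 24 h and 1 at 48 h. All libraries come from this 1 line, and nothing in the labels ties any of them to a separate culture, so p-values here describe only these libraries. The spread behind them is how far treatment differences vary between the times, and it may be technical.

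Both strands of the mitochondrial chromosome are transcribed into long precursor RNAs. Transfer RNAs lie between most of the other genes, and cutting them out of the precursor releases the messenger and ribosomal RNAs. The messenger RNAs encode core subunits of complexes I, III and IV of the respiratory chain and of ATP synthase, the ribosomal RNAs build the mitochondrial ribosome, and every protein that acts in transcription and RNA processing is made from nuclear genes. In these coordinates (GRCh38, with all 37 starts, ends and strands the same in GENCODE release 29) 28 genes lie on the plus strand and 9 on the minus strand, which are MT-ND6 and 8 transfer RNA genes.

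Of the 22 transfer RNAs, 5 held between 97.0% and 98.0% of transfer RNA reads in every library. They are shown because the transfer RNA shares of reads rest almost wholly on them. Medians and calls weigh each of the 22 alike. MT-TE is added because it passed the test under 5-FU. The sequences are from the GENCODE release 29 transcripts, 5′ to 3′ on the gene's own strand, and the capitals mark the anticodon. It was found by a search for a stem of 5 base pairs, with a mismatch allowed, closing a loop of 7 bases. The search required a T just before the anticodon. Only anticodons that read the amino acid in the gene's name were accepted, so that match was imposed.
MT-TL1 (leucine, MT:3230-3304, plus strand): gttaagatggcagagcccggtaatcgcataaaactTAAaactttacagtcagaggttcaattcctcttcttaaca
MT-TC (cysteine, MT:5761-5826, minus strand): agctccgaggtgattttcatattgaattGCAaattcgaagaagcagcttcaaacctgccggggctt
MT-TN (asparagine, MT:5657-5729, minus strand): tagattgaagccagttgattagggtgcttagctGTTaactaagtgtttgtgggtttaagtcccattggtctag
MT-TY (tyrosine, MT:5826-5891, minus strand): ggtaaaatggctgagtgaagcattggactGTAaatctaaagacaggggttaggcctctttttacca
MT-TP (proline, MT:15956-16023, minus strand): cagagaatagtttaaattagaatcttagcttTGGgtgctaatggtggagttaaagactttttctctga
MT-TE (glutamic acid, MT:14674-14742, minus strand): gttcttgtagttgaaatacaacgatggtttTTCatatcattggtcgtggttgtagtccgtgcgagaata
MT-TC, MT-TN, MT-TY and MT-TP are all on the minus strand, whereas MT-TL1 is on the plus strand, directly after MT-RNR2 and 2 bases before MT-ND1.

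Filtered reads ranged from 44361052 to 68674126 per library and reads recovered on genes from 18141663 to 28048517, so counting error is small for the abundant genes. Of 11 colon epithelium markers, CDX1 stayed under an FPKM of 1 in every library and the other 10 reached it in at least 1. FPKM is a read level per length of gene and per depth of library, here with the authors' own library scaling. Of the markers of other cell types, LYZ ranged from 215 to 601 FPKM, COL1A1 from 1.08 to 6.21 FPKM and ACTA2 from 1.05 to 3.43 FPKM, and the other 12 stayed under 1. All 37 mitochondrial genes had FPKM of 1 or more in at least 2 libraries and entered the test with 13351 other genes. MT-TF and MT-TA reached that level only in the 5-FU libraries, so for them the filter and the 5-FU contrast used the same values. In RNA from a whole culture, fewer cells of a kind and less RNA per cell cannot be told apart.

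The mitochondrial messenger RNAs took a larger share of all reads in both 5-FU libraries than in either control, and their share was as high in the 76 3P library of 48 h alone among the extracts. The 13 messenger RNAs held 3.95% of reads on genes at 24 h and 4.37% at 48 h under 5-FU. They held 2.66% and 3.21% under the 74 3NP extract, and 2.28% and 4.90% under the 76 3P extract. The control libraries had 2.55% at 24 h and 2.71% at 48 h. Of the 6 treated libraries, 4 lay above both controls, and the 76 3P library of 24 h was the lowest of all 8.

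The ribosomal RNAs, MT-RNR1 of the small and MT-RNR2 of the large mitochondrial ribosomal subunit, held 0.626% and 1.09% of reads at 24 h and 48 h under 5-FU. They held 0.433% and 0.822% under 74 3NP and 0.673% and 1.87% under 76 3P, against 0.365% and 0.431% in the controls. The 5-FU and 76 3P libraries and the 74 3NP library of 48 h were above both controls, while the 74 3NP library of 24 h differed from the control of 48 h by less than counting error. The transfer RNAs held 0.0516% and 0.0592% under 5-FU, 0.0335% and 0.0398% under 74 3NP and 0.0291% and 0.0591% under 76 3P, against 0.0411% and 0.0431% in the controls. The exact 95% intervals of these shares cover counting error only, not the spread between libraries. For transfer RNAs the interval of the 74 3NP library of 48 h, 0.0389% to 0.0407%, overlapped that of the control of 24 h, 0.0402% to 0.0419%. The interval was 3.94% to 3.95% for the messenger RNAs of the 5-FU library of 24 h.

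**Figure D1:**
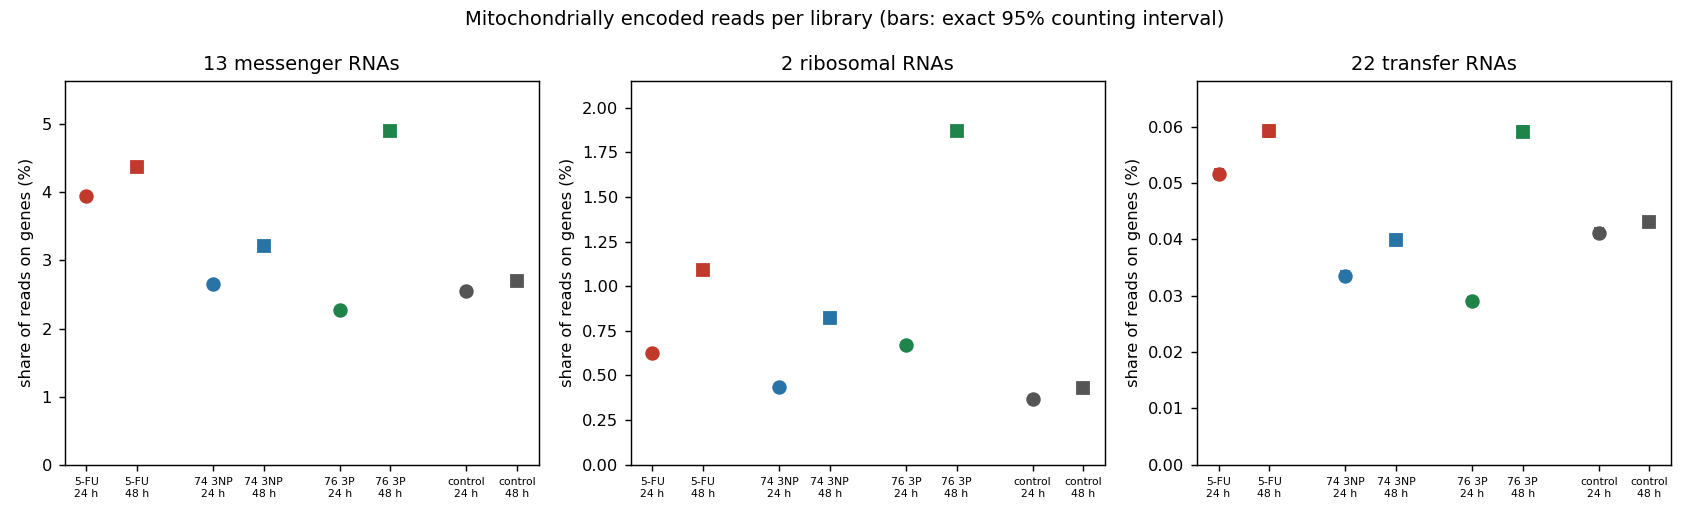
Share of reads on genes held by the mitochondrial messenger, ribosomal and transfer RNAs (y axes, percent, each starting at 0) in the 8 libraries, circles for 24 h and squares for 48 h, with exact 95% counting intervals that are mostly smaller than the symbols. The 5-FU libraries, at 3.95% and 4.37% of reads for messenger RNAs, lie above the controls at 2.55% and 2.71%, and the 76 3P libraries differ most between 24 h and 48 h.

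Among the messenger RNAs, levels per length ran over more than 2 orders of magnitude through MT-ATP8 alone, and the others averaged between 1466 and 6696 FPKM. The order was led by the subunits of complex IV, the cytochrome c oxidase. Mean FPKM over the 8 libraries was 6696 ± 1713 for MT-CO1, 4850 ± 1893 for MT-CO2 and 3816 ± 1098 for MT-CO3 (SD, n = 8). MT-ND4, a complex I subunit, followed with 3233 ± 1012, then MT-ND4L with 2600 ± 850 and MT-ATP6, a subunit of ATP synthase, with 2597 ± 815. The complex I genes MT-ND1, MT-ND5, MT-ND6, MT-ND3 and MT-ND2 averaged 1935, 1582, 1579, 1556 and 1550 FPKM, and MT-CYB, the complex III subunit, averaged 1466. MT-ATP8 was far below the rest at 32.2 ± 9.26 FPKM, and ranged from 17.2 to 44.3. Its gap to MT-ATP6 is not read as a difference in RNA level, since how reads of their overlap were counted is not given.

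The order held in all 8 libraries for MT-CO3 above MT-ND4, MT-ND4 above MT-ND4L, MT-ATP6 above MT-ND1 and MT-CYB above MT-ATP8. Neighbours from MT-ND5 to MT-CYB were not separated, since each was above the next in only 3 to 5 of 8 libraries. MT-ND4L was above MT-ATP6 in 5 libraries. MT-CO1 was above MT-CO2 in 7 libraries, and the exception was 5-FU at 48 h, with 7609 FPKM for MT-CO1 and 8846 FPKM for MT-CO2.

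Overlaps on the same strand join 2 pairs of genes, so their reads cannot be fully told apart, and the labels do not say how shared reads were counted. MT-ATP8 and MT-ATP6 share 46 bases, which are 22.2% of MT-ATP8. The stretch is shown because reads within it belong to both genes, with the start codon of MT-ATP6 in capitals.
MT-ATP8 and MT-ATP6 overlap (MT:8527-8572, plus strand): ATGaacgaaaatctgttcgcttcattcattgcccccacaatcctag
MT-ND4L and MT-ND4 share 7 bases, which are 2.36% of MT-ND4L. Whether counting used strand is not given either, so reads of a gene and of RNA from the opposite strand cannot be told apart. This touches MT-ND6 and the minus-strand transfer RNAs, which include MT-TC, MT-TN, MT-TY and MT-TP.

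**Figure D2:**
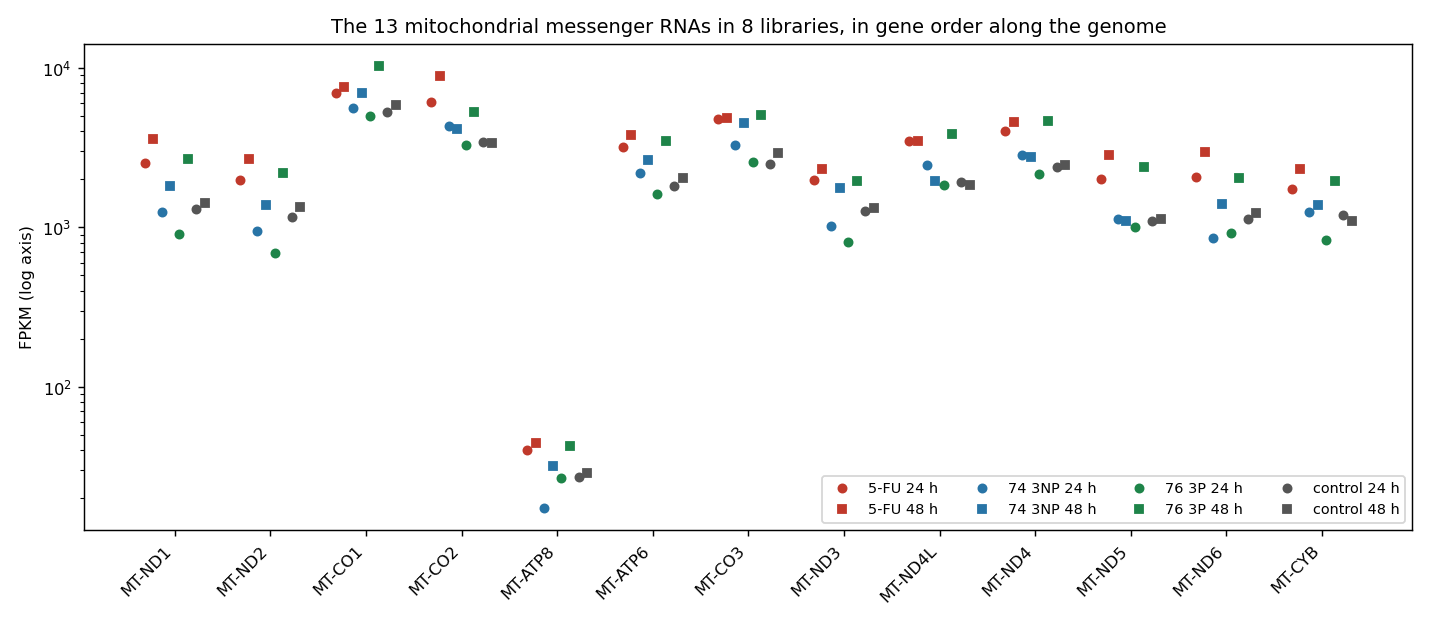
FPKM of the 13 mitochondrial messenger RNAs (y axis, log scale) in the order of the genes along the chromosome, with 1 symbol per library, circles for 24 h and squares for 48 h. MT-CO1 reached 10268 FPKM in the 76 3P library of 48 h, and MT-ATP8 stayed between 17.2 and 44.3 FPKM.

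Under 5-FU, all 13 messenger RNAs were above both controls in both libraries, and none of the 13 passed the test in the fit of all 8 libraries. Such a separation was common, since 32.7% of all tested genes had both 5-FU libraries above both controls. The test was limma on log2(FPKM + 1) with treatment and time as terms, adjusted over 13388 genes, and 5.53% of these genes passed it in this contrast at an adjusted p of 0.05. The median difference of the 13 messenger RNAs was 0.85 on that log2 scale, at 0.82 at 24 h and 0.91 at 48 h, beside a median of 0.00 over all tested genes. Their adjusted p by limma ranged from 0.0554 to 0.400. The unadjusted p was under 0.05 for 12 of 13, beside 3885 of all 13388 tested genes. Single libraries set these values: without the control of 48 h the median was 0.66, and without the control of 24 h it was 1.08.

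MT-CO2, the copper-bearing subunit that takes up electrons from cytochrome c, had 6110 and 8846 FPKM under 5-FU at 24 h and 48 h, against 3437 and 3403 FPKM in the controls. The difference was 1.10 ± 0.28 (log2, SE), with an adjusted p of 0.0554 by limma. MT-ND1, a complex I subunit, had 2523 and 3576 FPKM under 5-FU, against 1307 and 1411 FPKM in the controls, a difference of 1.14 ± 0.34 with an adjusted p of 0.0818 by limma. Each group lay apart from the other in these genes, and the 5-FU library of 48 h was the higher of the pair.

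MT-ND6, the one messenger RNA on the minus strand, had 2077 and 2950 FPKM under 5-FU, against 1132 and 1238 FPKM in the controls, and differed by 1.06 ± 0.28 with an adjusted p of 0.0615 by limma. MT-CO1, the catalytic subunit of complex IV, had the smallest difference, with 6971 and 7609 FPKM under 5-FU, against 5316 and 5824 FPKM in the controls, or 0.39 ± 0.29 with an adjusted p of 0.400 by limma. The remaining 9 messenger RNAs had differences between 0.58 for MT-ATP8 and 1.09 for MT-ND5.

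Within the messenger RNAs the mix also differed in the 5-FU libraries. MT-CO1 made up 27.3% and 24.5% of messenger RNA reads under 5-FU at 24 h and 48 h. Its share was 32.4% and 34.3% under 74 3NP and 35.4% and 34.1% under 76 3P, against 33.5% and 34.4% in the controls. The 5-FU libraries were thus below the other 6 in this share. The 7 complex I genes together held 41.9% and 43.9% under 5-FU, 36.1% and 34.7% under 74 3NP and 35.5% and 39.7% under 76 3P, against 38.2% and 37.8% in the controls. Reads of MT-ND6 amounted to 2.85% and 3.34% of those of the other 12 messenger RNAs under 5-FU, 1.72% and 2.41% under 74 3NP and 2.30% and 2.36% under 76 3P, against 2.49% and 2.55% in the controls. These shares were not tested.

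Of the ribosomal RNAs, MT-RNR2 had 3625 and 6579 FPKM under 5-FU, against 1926 and 2210 FPKM in the controls. The difference was 1.24 ± 0.31, with an adjusted p of 0.0558 by limma. MT-RNR1 had 623 and 1747 FPKM under 5-FU, against 522 and 747 FPKM in the controls, where the 5-FU library of 24 h lay between the controls. Its difference was 0.74 ± 0.29, with an adjusted p of 0.141 by limma.

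Under 5-FU, 4 of the 22 transfer RNAs passed the limma test with higher values and none with lower, beside 2.51% of all tested genes that passed with higher values. MT-TF among them entered the test only through the 5-FU libraries. Of these 4, 2 rest on very few reads, only MT-TL1 also passed in tests on reads, and none passed without the 5-FU library of 48 h, without either 74 3NP library or without either control. Of the 22, 18 had a positive and 4 a negative difference, and the median was 0.58. These figures include MT-TF and MT-TA, which passed the low-value filter only through the 5-FU libraries. They also weigh all 22 alike, and 14 of these had at most 26 reads in every library. With a filter at FPKM 5 the median was 0.42. MT-TL1, which reads leucine codons and whose gene follows MT-RNR2, had 431 and 738 FPKM under 5-FU, against 107 and 146 FPKM in the controls. These values came from 757 and 924 reads under 5-FU, against 174 and 250 reads in the controls. MT-TL1 rose by 2.17 ± 0.27 (log2, SE), with an adjusted p of 0.0172 by limma, and the 5-FU libraries stood above all 6 others. Across 20 alternative settings its difference stayed between 1.84 and 2.50, and its adjusted p ranged from 0.00154 to 0.256. It passed in 13 of the 20. It did not pass without a low-value filter (adjusted p of 0.179) or without the time term (0.0547). Nor did it pass without the 5-FU library of 48 h (adjusted p of 0.135), without either 74 3NP library (0.0524 each), or without the control of 24 h (0.102) or of 48 h (0.256).

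MT-TE, the glutamic acid transfer RNA beside MT-ND6, had 53.3 and 83.4 FPKM under 5-FU, against 31.4 and 31.6 FPKM in the controls. It rose by 1.06 ± 0.24, with an adjusted p of 0.0452 by limma, on 86 and 96 reads under 5-FU, against 47 and 50 reads in the controls. MT-TM and MT-TF passed the same test on very few reads. MT-TM, the methionine transfer RNA, had 16 and 8 reads under 5-FU, against 2 and 6 in the controls, with an adjusted p of 0.0452 by limma. MT-TF, for phenylalanine, had 2 and 4 reads under 5-FU, against 0 and 1 in the controls, with an adjusted p of 0.0467 by limma. A count of 0 allows up to 3 reads, so the libraries of MT-TF cannot be separated at this depth. MT-TF also passed the filter on low values only through the 5-FU libraries, at 1.20 and 3.38 FPKM. Its call is therefore no support for a rise.

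The test on FPKM does not use the number of reads behind a value, and in simulated data it called unchanged genes with few reads more often than its threshold allows, so the calls of MT-TM and MT-TF carry little weight. Tests on the recovered reads gave other calls. By edgeR's quasi-likelihood test, where 8.27% of all tested genes passed, 4 mitochondrial genes rose: MT-TL1 with an adjusted p of 0.0169, MT-CO2 with 0.0364, MT-RNR2 with 0.0407 and MT-ND6 with 0.0450. The same 4 passed by limma with voom weights, where 8.01% of all tested genes passed. MT-TE, MT-TM and MT-TF passed in neither, at adjusted p of 0.126, 0.190 and 0.302 by edgeR. Of the 4 genes that passed on FPKM, MT-TL1 alone passed in all 3 tests.

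MT-TL1 was also set against its neighbours on the chromosome and against all transfer RNA reads. Its reads were 1.34% and 1.62% of those of MT-ND1 under 5-FU, 0.489% and 0.730% under 74 3NP and 0.641% and 0.589% under 76 3P, against 0.642% and 0.809% in the controls. Against MT-RNR2 they were 0.573% and 0.540% under 5-FU, 0.151% and 0.184% under 74 3NP and 0.0983% and 0.0973% under 76 3P, against 0.267% and 0.317% in the controls. MT-TL1 held 6.29% and 8.55% of transfer RNA reads under 5-FU, 1.72% and 3.24% under 74 3NP and 2.01% and 2.71% under 76 3P, against 2.04% and 2.63% in the controls. In all 3 ratios both 5-FU libraries were above the other 6. The ratios use the same MT-TL1 reads as its test, so they are no separate support. How many other genes separate in this way was not counted.

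**Figure D3:**
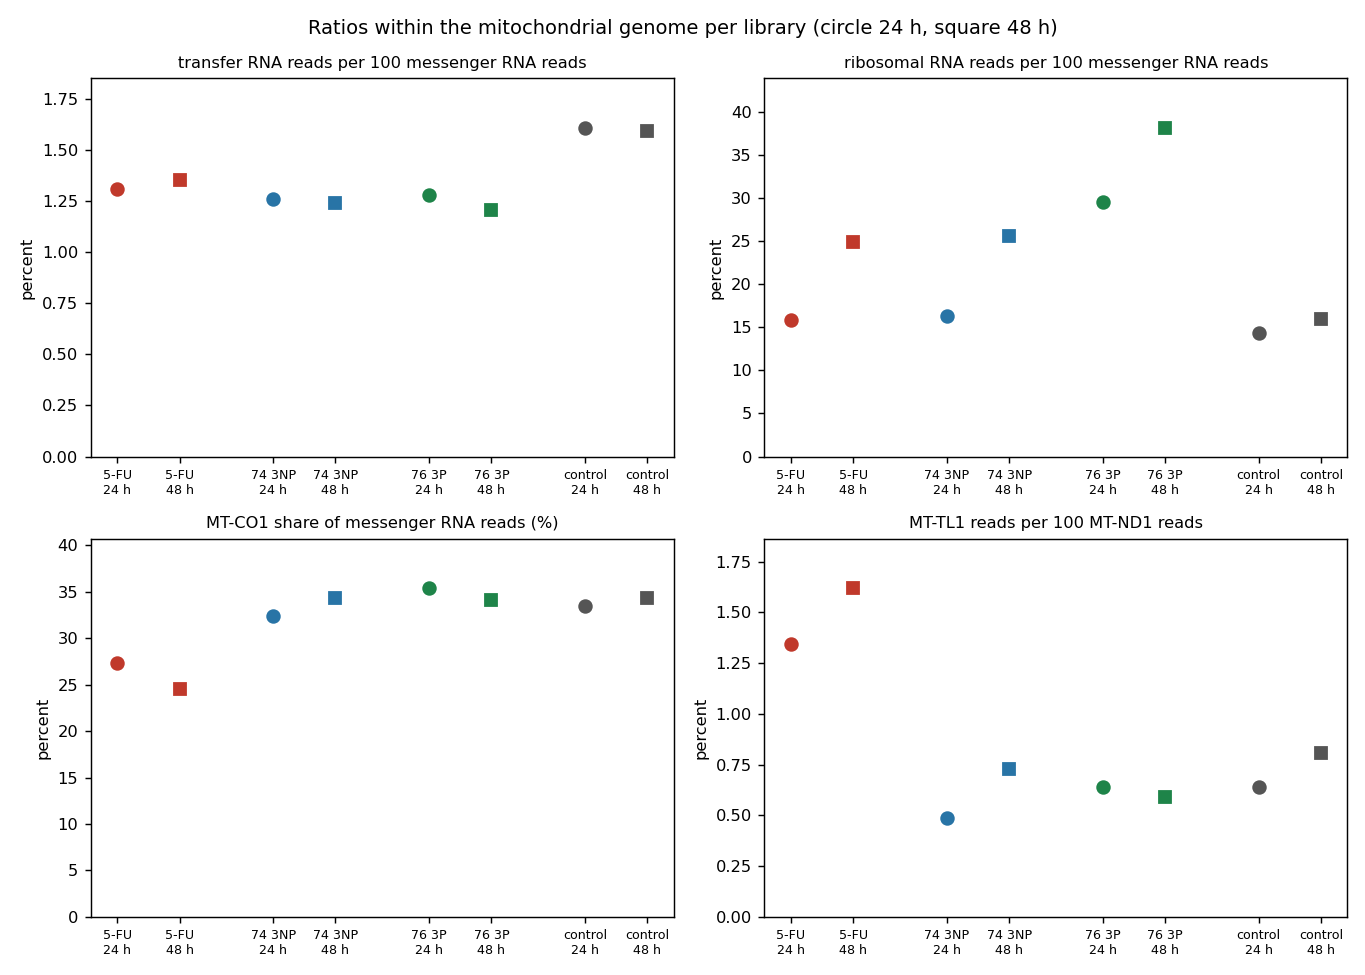
Ratios within the mitochondrial chromosome per library (y axes, percent, starting at 0), circles for 24 h and squares for 48 h: transfer RNA over messenger RNA reads, ribosomal RNA over messenger RNA reads, the share of MT-CO1 in messenger RNA reads, and MT-TL1 over MT-ND1 reads. The 6 treated libraries lie below both controls in the first, and MT-TL1 stands at 1.34% and 1.62% of MT-ND1 reads in the 5-FU libraries, above the other 6.

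The other abundant transfer RNAs differed less under 5-FU. MT-TC, for cysteine, had 4022 and 4606 FPKM under 5-FU, against 3148 and 3253 FPKM in the controls, a difference of 0.43 ± 0.31 with an adjusted p of 0.374 by limma. MT-TN, for asparagine, had 1498 and 1815 FPKM under 5-FU, against 1255 and 1229 FPKM in the controls, and a difference of 0.41. MT-TY, for tyrosine, differed by 0.77 and MT-TP, for proline, by 0.36. Of the 22 transfer RNAs, 14 had at most 26 reads in every library and 8 had no read in at least 1, so changes in most of them were not detectable at this depth. Reads of a cut transfer RNA and of its uncut precursor were not told apart, for MT-TL1 as for the others. Transfer RNA genes are 59 to 75 bases long, so their FPKM are large for few reads and are not set against those of longer genes.

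Relative to messenger RNA, transfer RNA was lower in every treated library than in the controls. Transfer RNA reads per 100 messenger RNA reads were 1.31 and 1.35 under 5-FU at 24 h and 48 h, 1.26 and 1.24 under 74 3NP and 1.28 and 1.21 under 76 3P, against 1.61 and 1.59 in the controls. The exact 95% intervals of the treated libraries ended at 1.38 or lower, and those of the controls began at 1.56, which covers counting error only. The difference was not tested against the spread between libraries. MT-TC, on the minus strand, alone held 46.9% to 53.8% of transfer RNA reads. Whether counting used strand is not given, so RNA from the opposite strand may be among these reads. Ribosomal RNA reads per 100 messenger RNA reads were 15.9 and 24.9 under 5-FU, 16.3 and 25.6 under 74 3NP and 29.6 and 38.2 under 76 3P, against 14.3 and 15.9 in the controls. Both 76 3P libraries were above the other 6 in this ratio, and the 5-FU library of 24 h was level with the control of 48 h. Ribosomal RNA genes outside MT had only 0 to 36 reads per library. How RNA was selected for sequencing was not taken into account, so these are ratios of reads and not of RNA amounts. MT-RNR2 over MT-RNR1, in FPKM, was 5.82 and 3.77 under 5-FU, 4.66 and 3.49 under 74 3NP and 4.68 and 4.48 under 76 3P, against 3.69 and 2.96 in the controls. That ratio was lower at 48 h than at 24 h in all 4 treatments.

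Under the 74 3NP extract no mitochondrial gene passed the test, in a contrast where 0.0523% of all tested genes did. The messenger RNAs had a median difference of 0.17, with 9 positive and 4 negative, and it was -0.16 without the control of 48 h. For 6 of 13 both 74 3NP libraries were above both controls, beside 25.9% of all tested genes. MT-CO3, a complex IV subunit, had 3302 and 4515 FPKM under 74 3NP, against 2496 and 2931 FPKM in the controls, and the largest difference of the messenger RNAs at 0.51 ± 0.29, with an adjusted p of 0.494 by limma. MT-RNR2 had 2471 and 4387 FPKM under 74 3NP, against 1926 and 2210 FPKM in the controls, and differed by 0.67 ± 0.31 with an adjusted p of 0.429 by limma. The transfer RNAs had a median of -0.15, with 7 positive and 15 negative. MT-TW, for tryptophan, had 3 and 1 reads under 74 3NP, against 6 and 9 in the controls, and an adjusted p of 0.203 by limma.

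Under the 76 3P extract the libraries of the 2 times went apart, and no mitochondrial gene passed the test. In that contrast 0% of all tested genes passed, although 2356 had an unadjusted p under 0.05. At 24 h 12 of the 13 messenger RNAs were below the control, with a median of -0.16, and at 48 h all 13 were above it, with a median of 0.79. The fitted median was 0.28, and it was 0.75 without the 76 3P library of 24 h and -0.13 without that of 48 h. No messenger RNA had both 76 3P libraries above both controls, beside 22.4% of all tested genes. MT-ND2, a complex I subunit, had 691 and 2194 FPKM under 76 3P at 24 h and 48 h, against 1159 and 1346 FPKM in the controls. MT-CO1 had 4980 and 10268 FPKM under 76 3P, against 5316 and 5824 FPKM in the controls. In both genes the 76 3P libraries enclosed the controls.

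The ribosomal RNAs were above both controls in both 76 3P libraries, as were 22.4% of all tested genes. MT-RNR2 had 3636 and 10001 FPKM under 76 3P, against 1926 and 2210 FPKM in the controls, a difference of 1.55 ± 0.31 with an adjusted p of 0.0924 by limma. MT-RNR1 had 777 and 2231 FPKM under 76 3P, against 522 and 747 FPKM in the controls, a difference of 1.08 ± 0.29 with an adjusted p of 0.143 by limma. On the recovered reads MT-RNR2 passed by a small margin, with an adjusted p of 0.0492 by edgeR, where 0.844% of all tested genes passed, and 0.0499 by limma with voom weights, where 0.717% passed. The transfer RNAs had a median of 0.12, with 13 positive and 9 negative. The largest differences were those of MT-TM and MT-TW, both on few reads. MT-TM had 26 and 18 reads under 76 3P, against 2 and 6 in the controls, a difference of 1.88 ± 0.33 with an adjusted p of 0.0774 by limma, beside 1.48 ± 0.33 under 5-FU. MT-TW had 2 and 2 reads under 76 3P, against 6 and 9 in the controls, a difference of -1.51 ± 0.30 with an adjusted p of 0.0886 by limma. MT-TL1 had 74.3 and 202 FPKM under 76 3P, against 107 and 146 FPKM in the controls, and a difference of -0.02.

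**Figure D4:**
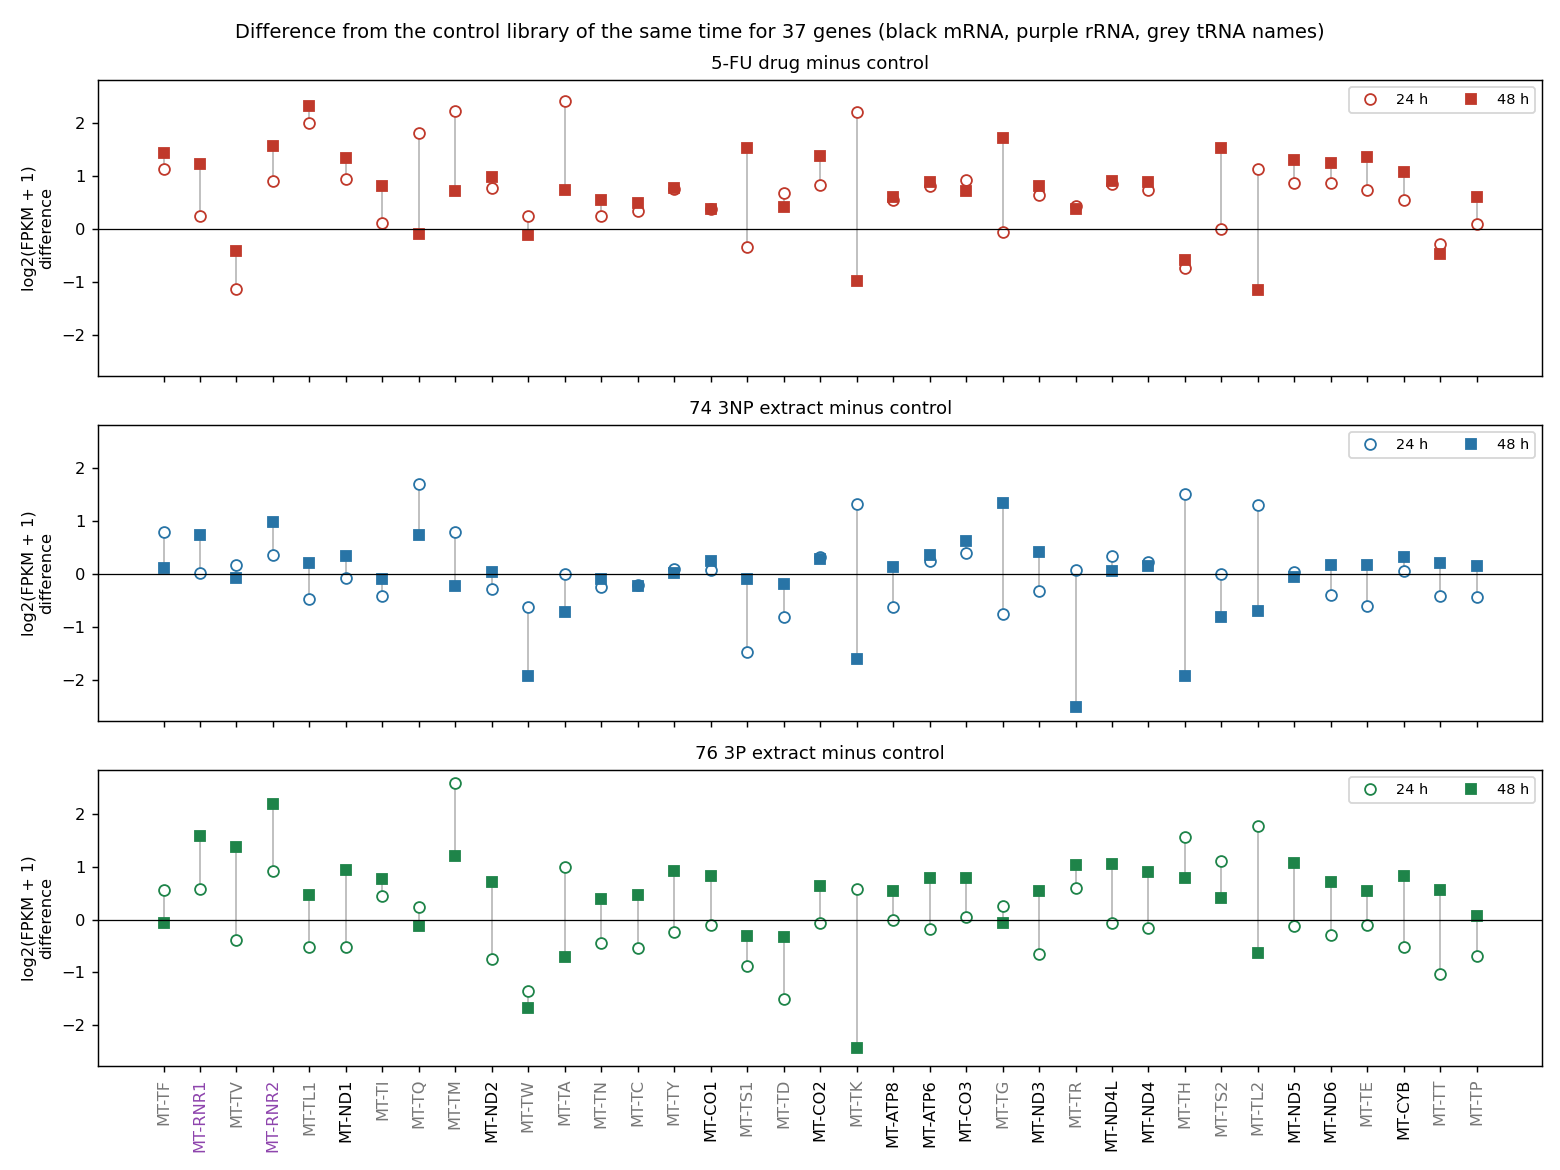
Difference from the control library of the same time on the log2(FPKM + 1) scale (y axis) for all 37 genes in chromosome order, open circles for 24 h and filled squares for 48 h, in 1 panel per treatment. Under 5-FU the messenger RNAs lie above 0 at both times. Under 76 3P 12 of 13 lie below 0 at 24 h and all 13 above it at 48 h. Grey names are the 22 transfer RNAs, of which 14 had at most 26 reads in every library.

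Between the extracts no mitochondrial gene passed the test, and 0% of all tested genes passed, with 1726 at an unadjusted p under 0.05. The median difference of 76 3P minus 74 3NP was 0.10 for the messenger RNAs, at -0.39 at 24 h and 0.53 at 48 h, and was -0.35 without the 76 3P library of 48 h. The difference was 0.87 for MT-RNR2 and 0.69 for MT-RNR1. The control libraries are shared by the 3 contrasts with control, so their values stand side by side here and are not set against each other.

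Between 48 h and 24 h all 13 messenger RNAs had a positive fitted difference, with a median of 0.43, and none of the 37 genes passed the test. In this contrast 0% of all tested genes passed, with 1394 at an unadjusted p under 0.05. The median of 48 h minus 24 h was 0.24 under 5-FU, 0.32 under 74 3NP and 1.12 under 76 3P, against 0.09 in the controls, so it was largest in the 76 3P libraries. Without either of those the fitted median was 0.22. MT-RNR1 had the largest difference of the ribosomal and messenger RNAs at 1.19 ± 0.21, with an adjusted p of 0.364 by limma, and MT-RNR2 had 0.84 ± 0.22.

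Nuclear genes that transcribe, process and translate mitochondrial RNA were examined as 7 lists. Under 5-FU, 5 of their 97 distinct tested genes, or 5.15%, passed the limma test, a share near the 5.53% of all tested genes and so no result about these lists. The 5 are given as single genes. SLC25A33, a carrier of pyrimidine nucleotides into mitochondria, rose by 0.93 ± 0.20 with an adjusted p of 0.0429, and 1 of 17 members of its list on replication and nucleotide supply rose. TRMU, which adds sulfur to mitochondrial transfer RNAs, rose by 0.97 ± 0.22 with an adjusted p of 0.0472, 1 of 17 in the list on transfer RNA modification. LRPPRC, which stabilises mitochondrial messenger RNAs, fell by 0.94 ± 0.20 with an adjusted p of 0.0425, 1 of 19 in the list on RNA cleavage, stability and decay.

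RPUSD4, a pseudouridine synthase that acts on mitochondrial ribosomal RNA, fell by 1.08 ± 0.19 with an adjusted p of 0.0304 by limma, 1 of 9 in its list. NARS2, which charges the asparagine transfer RNA in mitochondria, fell by 1.32 ± 0.25 with an adjusted p of 0.0330 by limma, 1 of 20 synthetase genes. None of the 10 transcription genes passed, and POLRMT, the mitochondrial RNA polymerase, had a difference of -0.23 ± 0.19. None of the 7 biogenesis regulators passed. The list medians ran from -0.22 to 0.02 under 5-FU.

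No member of the 7 lists passed in the other 4 contrasts. Under 76 3P, TFAM, which packages mitochondrial DNA and starts its transcription, differed by -0.94 ± 0.26 with an adjusted p of 0.145 by limma. DNA2 and FEN1, nucleases of DNA replication, differed by -1.50 and -1.42, each with an adjusted p of 0.0774 by limma. TYMP, thymidine phosphorylase, differed by 1.59 ± 0.49 under 76 3P and by 1.43 ± 0.49 under 74 3NP. Their part in the values of the mitochondrial genes was not tested.

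The nuclear genome holds many inactive copies of mitochondrial genes, which can share reads with them. Of 408 such copies in the table, 3 reached an FPKM of 5, all on chromosome 1. MTND2P28 (chr1:629640-630683) stood at 5.00% to 6.54% of the FPKM of MT-ND2, MTATP6P1 (chr1:633696-634376) at 5.11% to 7.27% of MT-ATP6 and MTCO1P12 (chr1:631074-632616) at 0.252% to 0.313% of MT-CO1. The labels do not say how reads that match both were assigned, so the levels of these genes are uncertain.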

How the data were processed

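Per the submitters' processing notes, the 8 libraries were mapped with HISAT2 2.0.5 to GRCh38, also listed as hg38. The labels add quality filtering and an Illumina platform; counter, annotation release and read layout are not given. The authors deposited FPKM per gene with lengths and positions. They also deposited counts of filtered reads and GC percent for each library. Each FPKM times gene length was a whole number of steps (100% of values, tolerance 0.01 reads), so the authors' read counts were recovered; the steps do not follow library totals.

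Tested were the 13388 genes that reached an FPKM of 1 in 2 or more libraries, as log2(FPKM + 1), a scale that understates changes of low genes. limma in R was fitted to the 8 libraries with treatment and time as terms, a variance trend and 3 residual degrees of freedom. Tests were two-sided with Benjamini-Hochberg adjustment over all tested genes in each contrast, at 0.05. The spread is how far treatment differences vary between the times, pooled over treatments. Differences at 1 time set 1 library against 1 and were not tested. On simulated data the script recovered changed genes, but among genes with few reads its false calls exceeded the nominal rate; limma with voom weights and edgeR's quasi-likelihood test on recovered reads are therefore given beside such calls. All 37 members could be named. Nuclear genes named are those past the test or, failing that, up to 3 per list with the largest difference. The members and lists were chosen with earlier results of these data known.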

Additional observations from a re-analysis of the deposited data

Results flagged for a closer look

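The following differences ran in opposite directions at 24 h and at 48 h, each time from 1 library against 1, and the change with time was not tested. For 76 3P minus control the median difference of the messenger RNAs was -0.16 at 24 h and 0.79 at 48 h (log2). For 76 3P minus 74 3NP it was -0.39 at 24 h and 0.53 at 48 h for the messenger RNAs, and -0.13 at 24 h and 0.30 at 48 h for the transfer RNAs. GC content was 53.1% and 53.0% in the 76 3P libraries of 24 h and 48 h, and the genes with a read numbered 24665 and 26712; their part in this was not tested.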

How the results depend on the processing

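Under 5-FU, 5.53% of all tested genes passed as reported, 11.3% with a filter at FPKM 5 and 8.99% with only the 4 libraries compared. For the other settings this share is not given here, so their counts are no result about the mitochondrial genes. The count of mitochondrial genes called, 4 as reported, was 8 with that filter and 10 with only the 4 libraries compared. It was 2 with a pseudocount of 5, 2 with scaling to reads outside MT, 1 with the time term left out and 0 when every expressed gene was tested. It ran from 0 to 17 when 1 library was left out, being 0 without the 5-FU library of 48 h, either 74 3NP library or either control, and 17 or 16 without the 76 3P library of 24 h or 48 h. The messenger RNA median under 5-FU was 0.77 with scaling to reads outside MT, and with 1 library left out it was 0.66 to 1.08, with 0.73 without 5-FU at 24 h and 0.99 without 5-FU at 48 h. The transfer RNA median under 5-FU was 0.37 with a pseudocount of 5 and 0.42 with a filter at FPKM 5, and 0.41 to 0.68 with 1 library left out. Under 74 3NP, 4 of the 37 genes were called with only the libraries compared. In that setting 10% of all tested genes passed, so the count is no result about the mitochondrial genes. The messenger RNA median there was -0.16 to 0.39 with 1 library left out. The transfer RNA median was -0.17 with a pseudocount of 0.1, -0.12 with one of 5, -0.17 with a filter at FPKM 5, -0.18 with scaling to reads outside MT, -0.11 by voom and -0.13 by edgeR, and with 1 library left out it was -0.38 to -0.0194, with -0.21 and -0.0199 without the 74 3NP library of 24 h and of 48 h. Under 76 3P, 2 mitochondrial genes were called with a filter at FPKM 5, where 1.99% of all tested genes passed. With only the libraries compared 3 were called, where 2.15% passed. By voom and by edgeR 1 was called, where 0.717% and 0.844% passed. The count also moved with 1 library left out. The transfer RNA median under 76 3P was -0.24 to 0.31. Between the extracts 0 to 1 genes were called with 1 library left out. The causes were not tested. Adding the reads of the 3 chromosome 1 copies, an alternative chosen after seeing the data, left 4 genes called under 5-FU. As shares of summed FPKM the messenger RNAs held 8.48% to 16.2%, and the same number of treated libraries, 4, lay above both controls. Treated and control libraries were matched by time through the time term of the fit, and the labels give no other pairing. Depth limits the 14 transfer RNAs with at most 26 reads.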
